A study of Mus musculus with 18 samples.

Results

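The 34 genes described here were chosen by name: transporters and enzymes that carry glucose to lactate, the hypoxia-inducible factor (HIF) subunits with their oxygen-sensing hydroxylases, and genes known as hypoxia-induced. They are 34 of 24059 gene symbols in the count tables, and all 34 are listed in both tables. RNA was sequenced from macrophages grown out of the bone marrow of C57BL/6J mice, as 18 libraries in 6 groups of 3. All cells were differentiated for 7 days in medium conditioned by L929 cells, which supplies the macrophage growth factor. The second table holds 4 groups, all stimulated with lipopolysaccharide (LPS), the cell wall component of Gram-negative bacteria. Loaded rHDL cells were loaded with cholesterol from liposomes and then received reconstituted high-density lipoprotein (rHDL, the preparation CSL111 of APOA1 and soybean phosphatidylcholine) for 20 h before LPS. Loaded cells received liposomes and LPS, rHDL cells received rHDL for 20 h and LPS, and the cells given LPS alone are their comparison group. The first table holds LPS-stimulated and untreated cells. No group received rHDL without LPS, so rHDL is described only under LPS. The labels give neither the dose and duration of LPS nor whether replicates came from separate cultures or animals, so the p-values measure the spread between these libraries, which may be technical.

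Macrophages activated by LPS are known for raised glucose uptake and lactate release. In this pathway glucose enters through transporters such as Slc2a1, is committed by hexokinase and phosphofructokinase, and leaves as lactate through monocarboxylate transporters. HIF-1 alpha (Hif1a) and HIF-2 alpha (Epas1) pair with Arnt and bind short elements near many of these genes. The Egln prolyl hydroxylases use oxygen to mark the alpha subunits for destruction, so HIF activity is set largely at the protein level, which RNA-seq does not measure.

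Not every gene could be measured. The tables count reads per transcript, and of 6698 rows whose exon bases all lie in other rows too, 6697 had 0 counts, so a read that overlaps more than 1 row was left out. In 21 of the 34 genes at least 98.6% of exon bases lie in 1 row only, and these were well measured. The other 13 had at most 11.0% of their exon bases to themselves. Of these, Hk1 (9.22%), Pfkp (3.79%), Aldoa (8.53%) and Pkm (6.87%) were tested in both tables and Eno1 (7.15%) in the first only. Their values rest on small parts of each gene. Hk3 and Vegfa have no exon base to themselves and were listed at 0 in all 18 libraries. Pfkm (3.66%), Pfkfb3 (0.257%), Gapdh (11.0%), Ldha (6.21%), Slc16a3 (1.30%) and Arnt (0.518%) had at most 34 counts over the first table and 70 over the second, and were not tested. No expression result below therefore covers these 8 genes, among them the lactate dehydrogenase subunit Ldha and the angiogenic factor Vegfa. Tpi1, Pgk1, Pgam1 and Aldoa have processed pseudogenes in the mouse. The labels do not say how reads that match several places were treated, so the levels of these genes are uncertain.

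Libraries held 11450243 to 16835472 counts for LPS and untreated cells and 9464916 to 15607889 counts for the other 4 groups, and replicates correlated across genes with Pearson's r of at least 0.988. Of 10 macrophage markers, Itgam was at 0 in every group, with almost no exon base of its own. The summed level of these 10 was 12050 to 14544 CPM (counts scaled to a common library size with TMM factors) in rHDL cells, against 21666 to 23466 CPM in cells given LPS alone. Loaded rHDL cells had 18712 to 22642 CPM and loaded cells 21291 to 22996 CPM. In the first table they summed to 30416 to 35856 CPM with LPS and 27273 to 32402 CPM in untreated cells. Summed neutrophil markers were 3.24 to 5.15 CPM in rHDL cells and 13.1 to 16.0 CPM in cells given LPS alone, stromal and endothelial markers 107 to 135 CPM in rHDL cells and 57.7 to 59.6 CPM with LPS alone, and lymphoid markers at most 0.363 CPM in the second table. Dendritic cell markers summed to 355 to 444 CPM in rHDL cells and 476 to 535 CPM with LPS alone, and erythroid, mast cell and platelet markers to 32.1 to 43.2 CPM in rHDL cells and 54.3 to 61.2 CPM with LPS alone. In the first table the dendritic markers summed to 1123 to 1208 CPM with LPS and 502 to 646 CPM in untreated cells, with all 3 tested called higher, and the erythroid, mast cell and platelet markers to 61.7 to 98.4 CPM with LPS and 13.9 to 30.0 CPM in untreated cells. Of the 9 macrophage markers tested, 6 were called lower with rHDL and 1, Cd68, higher. Neutrophil markers summed to 8.24 to 10.5 CPM in loaded cells and 6.05 to 8.66 CPM in loaded rHDL cells. Stromal and endothelial markers summed to 44.4 to 84.2 CPM in loaded cells and 34.5 to 42.8 CPM in loaded rHDL cells. In the first table neutrophil markers summed to 83.8 to 91.3 CPM with LPS and 85.9 to 105 CPM without. With loading and no rHDL, Csf1r and the neutrophil marker S100a8 were called lower. Several of these markers thus moved with LPS, rHDL or loading, and their part in the results below was not tested. In bulk libraries fewer cells of a type and less RNA per cell cannot be told apart.

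Promoter sequence was matched in RefSeq (GRCm38.p6) for 32 of the 34 genes, not for Epas1 and Ndrg1. Each window runs from 250 bases before to 50 bases after the annotated start. Both strands were searched for ACGTG, the core letters of the hypoxia response element, and for its known variant with a leading guanine, GCGTG. The palindrome CACGTG reads the same on both strands and counts as 2 overlapping cores. At least 1 core was found in 25 of the 32 windows, against 43.8% of all 32851 windows. ACGTG was in 17 of the 32 windows, against 19.6% of all, and GCGTG in 17, against 32.4%. The mean was 1.91 cores per window for these genes and 0.802 over all windows. Hk1, Gpi1, Aldoa, Tpi1, Eno2, Pkm and Vegfa had none. These counts describe letters in a fixed window and say nothing about binding.

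Below are the 250 bases before the start for 6 genes, read 5′ to 3′ on the strand of the gene, with the cores in capitals. Aldoc, Eno2, Hk2 and Pfkfb4 have the largest changes described below among the genes with a window, and Bnip3 and Slc16a1 were added after their values were seen. The stretches are chr11:78323948-78324197 on the plus strand for Aldoc, chr6:124769674-124769923 on the minus strand for Eno2, chr6:82774455-82774704 on the minus strand for Hk2, chr9:108991652-108991901 on the plus strand for Pfkfb4, chr7:138909507-138909756 on the minus strand for Bnip3 and chr3:104638414-104638663 on the plus strand for Slc16a1.
Aldoc: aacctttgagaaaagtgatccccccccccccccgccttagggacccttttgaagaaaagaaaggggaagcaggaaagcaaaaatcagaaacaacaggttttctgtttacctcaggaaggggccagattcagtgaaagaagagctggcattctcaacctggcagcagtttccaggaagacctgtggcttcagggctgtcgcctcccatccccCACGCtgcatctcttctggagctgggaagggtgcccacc
Eno2: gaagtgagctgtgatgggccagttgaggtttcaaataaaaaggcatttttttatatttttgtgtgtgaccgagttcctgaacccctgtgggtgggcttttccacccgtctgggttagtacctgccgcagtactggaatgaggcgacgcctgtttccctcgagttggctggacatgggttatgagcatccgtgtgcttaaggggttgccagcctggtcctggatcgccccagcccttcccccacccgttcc
Hk2: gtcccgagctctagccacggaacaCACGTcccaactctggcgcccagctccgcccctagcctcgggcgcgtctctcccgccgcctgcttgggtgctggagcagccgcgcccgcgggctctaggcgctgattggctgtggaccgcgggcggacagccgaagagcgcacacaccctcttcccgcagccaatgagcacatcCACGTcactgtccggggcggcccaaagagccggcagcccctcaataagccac
Pfkfb4: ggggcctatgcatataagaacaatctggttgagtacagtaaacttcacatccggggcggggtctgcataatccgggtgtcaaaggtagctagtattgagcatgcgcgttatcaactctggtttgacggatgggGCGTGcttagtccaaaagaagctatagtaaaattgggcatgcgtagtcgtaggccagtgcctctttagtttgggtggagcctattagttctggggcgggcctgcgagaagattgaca
Bnip3: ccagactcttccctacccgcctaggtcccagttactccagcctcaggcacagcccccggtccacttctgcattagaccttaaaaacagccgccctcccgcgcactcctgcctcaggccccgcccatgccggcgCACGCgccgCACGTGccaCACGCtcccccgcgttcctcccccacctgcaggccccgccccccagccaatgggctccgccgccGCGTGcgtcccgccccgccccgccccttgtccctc
Slc16a1: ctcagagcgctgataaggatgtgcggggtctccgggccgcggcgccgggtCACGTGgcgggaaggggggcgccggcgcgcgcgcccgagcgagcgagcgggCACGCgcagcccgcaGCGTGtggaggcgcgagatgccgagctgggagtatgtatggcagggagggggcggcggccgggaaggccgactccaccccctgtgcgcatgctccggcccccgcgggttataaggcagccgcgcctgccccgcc
Aldoc and Pfkfb4 show 1 core each in this stretch, Hk2 shows 2, Slc16a1 shows 4, Bnip3 shows 5 and Eno2 shows none. The RefSeq start of Eno2 lies 164 bases from the start of its row in the count tables. Among the 32 windows this distance, from the outermost row start, was larger for Gapdh (694 bases), Slc16a3 (583), Pkm (208) and Higd1a (204). Their windows may not be the promoters of the counted transcripts.

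**Figure D1:**
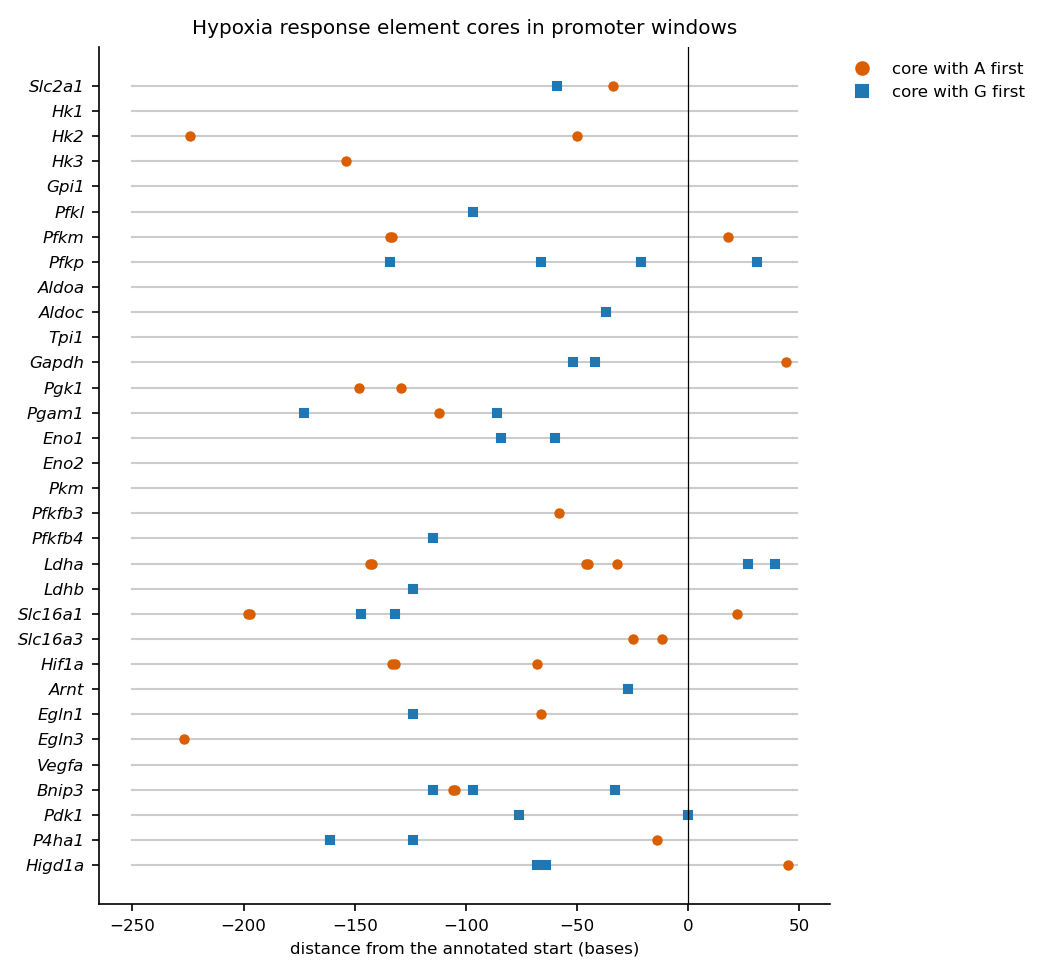
Positions of the hypoxia response element cores in the promoter windows of 32 genes. The x axis is the distance in bases from the annotated start, each grey line is 1 window, circles are cores that begin with A and squares cores that begin with G on either strand. Cores are in 25 windows, and 7 windows hold none.

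LPS against untreated cells gives the response of the pathway to the bacterial signal. Genes for glucose entry and the first committed steps were higher under LPS (Slc2a1, Hk2, Pfkl, Pfkp), as was Hif1a, while the regulator Pfkfb4 and the kinase Pdk1 were lower. Of the 26 genes tested, 11 rose, 8 fell and 7 were not called at an adjusted p under 0.05. Over all 9576 genes tested with LPS, 72.9% were called (35.3% higher and 37.6% lower), so the 19 calls are close to the background share. The median log2 fold change was 0.097 for the 26 genes, against -0.055 for all genes. The groups did not overlap for 21 of the 26, against 76.1% of all genes.

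Slc2a1, a glucose transporter of the plasma membrane (chr4:119108745-119137329, mm10), had 409, 417 and 398 CPM in LPS-stimulated cells, against 172, 169 and 180.4 CPM in untreated cells. Its log2 fold change was 1.23 ± 0.069 (SE; edgeR quasi-likelihood test, adjusted p = 3.79e-08). Every LPS library lay above every untreated one. Hk2, the inducible hexokinase that traps glucose in the cell (chr6:82725027-82774454), had 433, 404 and 422 CPM with LPS, against 127, 123 and 121 CPM without. It rose by 1.76 ± 0.070 on the log2 scale (edgeR adjusted p = 2.41e-09), the largest rise among the 26 genes tested. Phosphofructokinase, which commits sugar to glycolysis, was measured in its Pfkl and Pfkp forms, and both rose. Pfkp, with 3.79% of its exon bases counted, had 26.6, 25.3 and 27.0 CPM with LPS, against 10.3, 9.23 and 8.02 CPM without, a change of 1.51 ± 0.11 (edgeR adjusted p = 3.02e-07). Pfkl averaged 147 ± 3.77 CPM with LPS and 66.7 ± 7.93 CPM without (SD, n = 3 each), a change of 1.14 ± 0.090. The groups were separate for both genes.

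The other genes of glycolysis went both ways, with log2 fold changes from -1.56 (Pfkfb4) to 0.81 (Eno2). Pgk1, the first enzyme of glycolysis that yields ATP, rose by 0.51 ± 0.078 on the log2 scale and Eno2, the neuronal form of enolase, by 0.81 ± 0.082. Eno2 had 55.5, 57.0 and 50.3 CPM with LPS and 31.3, 30.2 and 31.1 CPM without. In contrast, Gpi1 (-0.19 ± 0.073), Tpi1 (-0.32 ± 0.075), Pgam1 (-0.22 ± 0.072) and the counted part of Pkm (-0.69 ± 0.089) fell. Gpi1, Tpi1 and Pgam1 are the isomerases and the mutase between the committed steps, and Pkm makes pyruvate. Aldoc (0.16 ± 0.17), Hk1 (-0.16 ± 0.23), Aldoa (-0.29 ± 0.17) and Eno1 (0.49 ± 0.29) were not called. Pfkfb4, which makes and breaks the sugar phosphate that activates phosphofructokinase (chr9:108991902-109032225), had 24.5, 23.0 and 25.5 CPM with LPS, against 69.4, 72.9 and 73.6 CPM without. It fell by 1.56 ± 0.082 on the log2 scale (edgeR adjusted p = 2.04e-08), the largest fall of the 26. Of the lactate genes, the transporter Slc16a1 rose by 0.28 ± 0.11 with overlapping groups, and the dehydrogenase subunit Ldhb was not called (0.037 ± 0.16).

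Hif1a, the oxygen-regulated alpha subunit (chr12:73907867-73947530), had 482, 419 and 461 CPM in LPS-stimulated cells, against 152, 154 and 169 CPM in untreated cells. It rose by 1.52 ± 0.081 (edgeR adjusted p = 2.56e-08), and no library of either group crossed into the range of the other. Epas1, the second alpha subunit, fell by 0.51 ± 0.12, to 8.38 ± 0.429 CPM with LPS, against 11.9 ± 1.16 CPM without (SD, n = 3 each). The hydroxylase Egln1 fell by 0.22 ± 0.075. Egln3, a hydroxylase that is itself a HIF target, had 15.1, 15.4 and 11.4 CPM with LPS and 10.7, 13.7 and 18.1 CPM without, so the groups overlapped and it was not called (-0.0011 ± 0.19).

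The remaining hypoxia-induced genes did not move together. P4ha1, the catalytic subunit of collagen prolyl hydroxylase, had 350.2, 378 and 374 CPM with LPS and 168, 165 and 176 CPM without, a rise of 1.12 ± 0.071 (edgeR adjusted p = 1.08e-07). Ndrg1, a stress-responsive gene, rose by 0.56 ± 0.069 and the mitochondrial inner membrane protein Higd1a by 0.39 ± 0.11. Pdk1, the kinase that switches off pyruvate dehydrogenase, had 33.8, 31.8 and 30.6 CPM with LPS and 71.6, 74.2 and 56.6 CPM without. It fell by 1.08 ± 0.11 (edgeR adjusted p = 5.48e-06), with no overlap. Bnip3, a receptor for mitophagy, was not called (-0.22 ± 0.11, edgeR adjusted p = 0.0943).

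**Figure D2:**
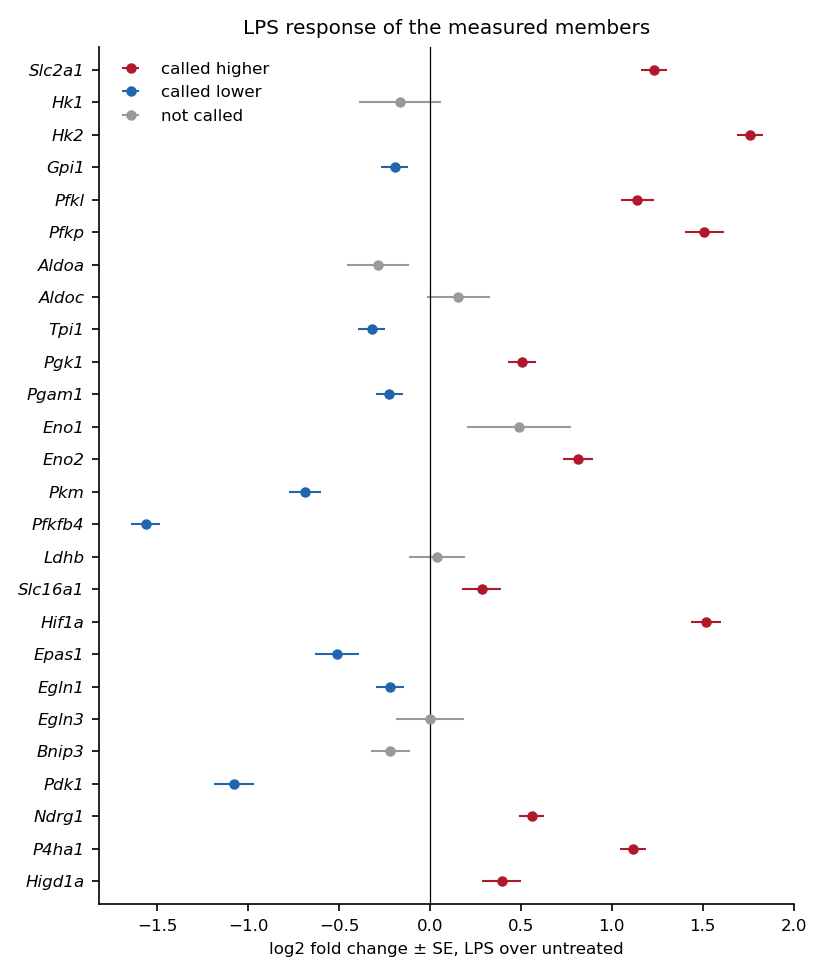
Log2 fold change of LPS over untreated cells for the 26 tested genes, in pathway order from glucose entry at the top. Points are the estimates of the edgeR fit, bars are 1 SE, red marks genes called higher, blue genes called lower and grey genes not called. Hk2 lies farthest to the right at 1.76 and Pfkfb4 farthest to the left at -1.56.

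With library totals in place of TMM, the median over all genes was -0.77 and the split of calls 1532 higher and 6640 lower over all genes, and 6 higher and 17 lower among these genes. Under it Pgk1 (-0.21), Slc16a1 (-0.43), Ndrg1 (-0.16) and Higd1a (-0.32) changed sign, Eno2 lost its call (0.098), and Slc2a1, Hk2, Pfkl, Pfkp, Hif1a and P4ha1 stayed higher and called. Single libraries left out ended the calls of Gpi1 (untreated replicates 1 and 2, LPS replicate 3), Pgam1 (untreated 1 and 3, LPS 3), Slc16a1 (untreated 1 and 2, LPS 2 and 3) and Egln1 (untreated 3, LPS 2 and 3), at edgeR adjusted p of 0.0542 to 0.161, and Eno1 was called without LPS replicate 1 (0.72, adjusted p = 0.0423). DESeq2 called 11 higher and 5 lower, without Gpi1 (adjusted p = 0.0668), Pgam1 (0.0535) and Egln1 (0.0767). Over all genes it called 3469 higher and 3303 lower. With DESeq2 size factors edgeR did not call Gpi1 (adjusted p = 0.0821) or Egln1 (0.0607). With same-numbered libraries as blocks it did not call Gpi1 (0.0613).

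Genes of neighbouring pathways were counted as well. Of 16 tested genes of sugar handling outside the 34, 2 rose and 9 fell, led by the transporter Slc2a6 (3.85 on the log2 scale, with 3.99% of its exon bases counted), Pgm2l1 (-1.81), Pfkfb2 (-2.26, with 26.7% counted) and Slc2a8 (-1.30). In the pentose phosphate pathway, which branches from glycolysis to make NADPH and ribose, 2 of 10 rose and 6 fell. The named members were Rpe (1.07), Shpk (-3.10), H6pd (-2.17, with 5.07% counted) and Taldo1 (-0.43). Of 13 genes that bring pyruvate into mitochondria, 8 rose, among them Dld (1.48), Pdhx (0.75) and the citrate synthase Cs (0.70), and 2 fell, led by the kinase Pdk2 (-3.38). Of 30 other hypoxia targets and regulators, 13 rose and 12 fell. The vasoconstrictor precursor Edn1 averaged 647 ± 51.4 CPM with LPS and 0.314 ± 0.141 CPM without, and the HIF co-activator competitor Cited2 1568 ± 156 CPM with LPS and 156 ± 3.56 CPM without. The chemokine receptor Cxcr4 averaged 9.22 ± 1.06 CPM with LPS and 177 ± 5.75 CPM without (SD, n = 3 each). The lists share Gbe1, Pfkfb2 and Slc2a3, and all are read against the 72.9% of genes called.

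rHDL before LPS was compared with LPS alone in unloaded cells. Aldoc and Eno2, the forms of aldolase and enolase best known from brain, rose several fold with rHDL, and Epas1 and Ndrg1 rose as well. Hif1a, Pdk1, Bnip3, the lactate transporter Slc16a1 and 4 more genes fell. Of the 25 genes tested, 4 rose, 8 fell and 13 were not called, against 36.5% called over all 8965 genes (18.1% higher and 18.4% lower). DESeq2 called 4 higher and 10 lower, with Slc2a1 and Pkm added, against 1460 higher and 1671 lower over all genes. The median log2 fold change was -0.095, against 0.028 over all genes. The groups did not overlap for 18 of the 25, against 51.4% of all genes.

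Aldoc, which splits fructose bisphosphate (chr11:78324198-78326760, mm10), had 21.7, 18.1 and 17.2 CPM in rHDL cells, against 3.19, 3.72 and 3.82 CPM in cells given LPS alone. No library of the other groups in the second table exceeded 4.32 CPM. The log2 fold change was 2.40 ± 0.16 (edgeR adjusted p = 7.91e-08). Eno2, which makes phosphoenolpyruvate (chr6:124760055-124769509), had 45.3, 57.1 and 59.4 CPM in rHDL cells, against 12.9, 17.6 and 14.7 CPM with LPS alone, a rise of 1.83 ± 0.17 (edgeR adjusted p = 1.61e-06). The lowest rHDL library lay above the highest library of any other group in the second table. These were the largest rises of the 25 genes tested.

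The other glycolytic genes changed less or were not called. Slc2a1 had 458, 501 and 474 CPM in rHDL cells and 532, 618 and 542 CPM with LPS alone, and Hk2 had 496, 496 and 504 CPM in rHDL cells and 557, 551 and 513 CPM with LPS alone. Neither was called by the main edgeR fit (-0.24 ± 0.094 for Slc2a1 and -0.12 ± 0.064 for Hk2), although the rHDL libraries lay below those of LPS alone in both. Slc2a1 was called lower by DESeq2 (-0.25, adjusted p = 0.0366). It was also called lower by edgeR with DESeq2 size factors (adjusted p = 0.0437), same-numbered libraries as blocks (0.00261) or the 2 groups alone (0.0216). Pfkp fell by 0.36 ± 0.093 and Pfkl by 0.21 ± 0.073. Hk1, Gpi1, Aldoa, Tpi1, Pgk1, Pgam1, Pkm and Pfkfb4 were not called by the main edgeR fit. Their log2 fold changes were -0.64 for Hk1, -0.21 for Pkm, 0.19 for Pgam1 and between -0.095 and 0.023 for the rest. Pkm was called lower by DESeq2 (-0.23, adjusted p = 0.0473), and by edgeR with DESeq2 size factors (0.0434), blocks (0.0300) or the 2 groups alone (0.0300). With edgeR Pgam1 was called higher under library totals (adjusted p = 0.0170), with blocks (0.0271) or with the 2 groups alone (0.0335). Slc16a1, which carries lactate and pyruvate across the membrane (chr3:104638664-104658462), had 40.5, 37.2 and 37.0 CPM in rHDL cells, against 66.1, 66.3 and 60.4 CPM with LPS alone. It fell by 0.75 ± 0.094 (edgeR adjusted p = 2.51e-05), with no overlap. Ldhb was at 1.83, 1.46 and 1.66 CPM in rHDL cells and 0.851, 1.09 and 1.31 CPM with LPS alone and was not called (edgeR adjusted p = 0.0925). Under library totals edgeR called Ldhb higher (0.72, adjusted p = 0.0449).

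The alpha subunits went in opposite directions. Hif1a had 513, 548 and 524 CPM in rHDL cells, against 722, 699.7 and 676 CPM with LPS alone, a change of -0.40 ± 0.071 (edgeR adjusted p = 4.43e-04). Epas1 (chr17:86753864-86833410) had 5.06, 7.80 and 6.10 CPM in rHDL cells and 3.09, 3.72 and 2.40 CPM with LPS alone, a rise of 1.02 ± 0.26 (edgeR adjusted p = 0.00721). The groups were separate for both, and Epas1 stayed at a low level. Egln1 fell by 0.27 ± 0.079. Egln3 had 5.88, 13.2 and 9.63 CPM in rHDL cells and 6.39, 11.4 and 6.54 CPM with LPS alone, with overlapping groups and no call (0.21 ± 0.30).

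Among the remaining hypoxia-induced genes 1 rose and 3 fell. Bnip3 (chr7:138890836-138909506) had 41.4, 44.2 and 35.6 CPM in rHDL cells, against 69.7, 90.6 and 70.6 CPM with LPS alone, a change of -0.93 ± 0.14 (edgeR adjusted p = 1.50e-04). Pdk1 (chr2:71873224-71903858) had 49.0, 49.2 and 48.1 CPM in rHDL cells, against 87.5, 72.1 and 72.7 CPM with LPS alone, a change of -0.67 ± 0.088 (edgeR adjusted p = 3.84e-05). Neither gene had an rHDL library inside the range of the other group. P4ha1 fell by 0.30 ± 0.065. Ndrg1 (chr15:66929318-66969641) had 512, 504 and 464 CPM in rHDL cells, against 312, 400.1 and 373 CPM with LPS alone, a rise of 0.45 ± 0.10 (edgeR adjusted p = 0.00345). Higd1a was not called and had nearly equal means, 20.9 ± 1.06 CPM in rHDL cells and 20.9 ± 1.07 CPM with LPS alone (SD, n = 3 each). In the promoter windows, all 8 genes that fell held at least 1 core (1 to 5, median 3), as did 1 of the 2 risen genes with a window and 8 of the 13 not called. For LPS against untreated cells the same counts were 4 of 7 fallen, 9 of 10 risen and 5 of 7 uncalled genes. Among all 32 windows of these genes 25 held a core, and the splits by call were not tested.

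The authors' deposited table of rHDL effects in unloaded cells is labelled 1.5-fold, unlike the calls above, which had no fold minimum. It lists 5 of the 34 genes among its 1609 rows: Aldoc at a log2 fold change of 2.40, Eno2 at 1.82, Epas1 at 1.02, Slc16a1 at -0.76 and Bnip3 at -0.94. At a 1.5-fold minimum the genes called here were these 5 and Pdk1 (-0.67). With library totals in place of TMM the median over all genes was 0.14, the split 2507 higher and 1273 lower over all genes, and 6 higher and 5 lower among these. The calls of Pfkl, Pfkp and Egln1 were lost under it, Pfkl also without any 1 library other than LPS-alone replicate 3 (edgeR adjusted p of 0.0649 to 0.157), and Egln1 without LPS-alone replicate 1 (0.0583) or rHDL replicate 3 (0.0552), and Pkm was called without LPS-alone replicate 3 (-0.27, adjusted p = 0.0425). Pfkl lost its call with no low-count filter as well (edgeR adjusted p = 0.0904).

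**Figure D3:**
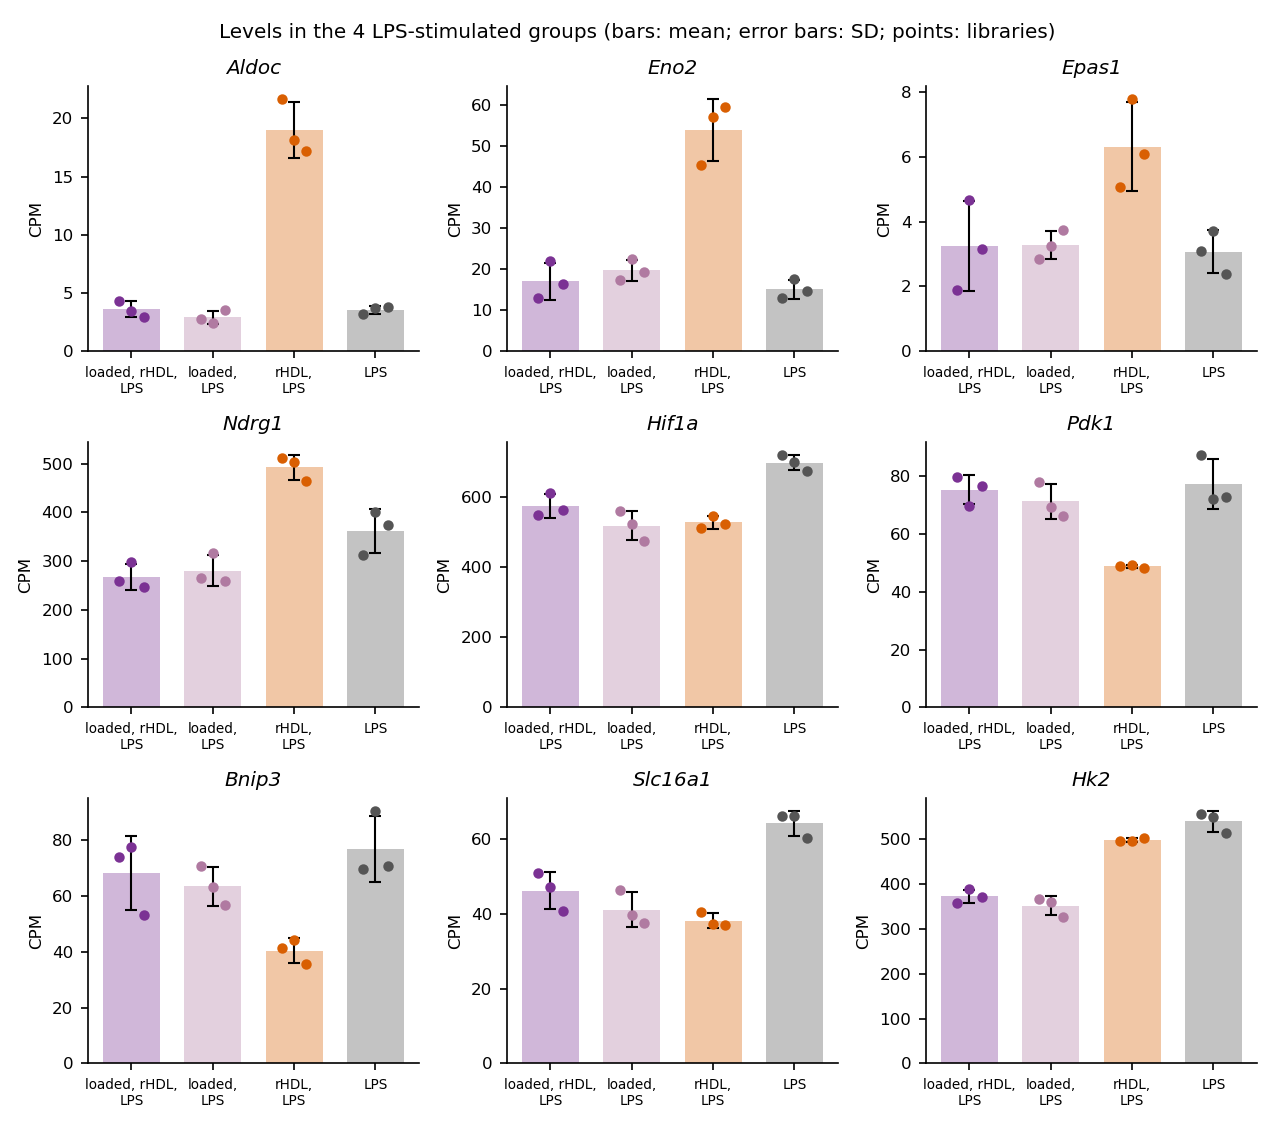
Levels of 9 genes in the 4 LPS-stimulated groups, in CPM. Bars are means of 3 libraries, error bars are SD and points are single libraries; the panels' y axes differ. Aldoc averaged 19.0 CPM and Eno2 53.9 CPM in rHDL cells, above every library of the other groups, and Bnip3 and Pdk1 were lowest there.

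Neighbouring pathways under rHDL are read against the same 36.5%. Of 10 pentose phosphate genes 4 rose and 1 fell. Pgd, a dehydrogenase that makes NADPH, averaged 704 ± 8.36 CPM in rHDL cells and 463 ± 9.78 CPM with LPS alone, a rise of 0.61 ± 0.055. Tkt (0.46), Prps1 (0.51) and Taldo1 (0.40) rose too. Of 16 sugar handling genes 3 rose and 2 fell, led by Pgm2 (-0.80 ± 0.065), with the glycogen branching enzyme Gbe1 (0.41), Pfkfb2 (0.95) and Pgm2l1 (0.73) higher. Of 12 mitochondrial pyruvate genes 3 rose (Pdp2 0.61, Cs 0.24 and Mpc1 0.30) and 1 fell (Pdk3 -0.42). Of 29 other hypoxia targets and regulators 6 rose and 4 fell. Plod1, a collagen lysyl hydroxylase, fell by 0.87 ± 0.077 and Flt1, a receptor for Vegfa, by 1.31 ± 0.17. Edn1 rose by 0.74 ± 0.10, to 921 ± 115 CPM in rHDL cells, against 552 ± 43.1 CPM with LPS alone (SD, n = 3 each).

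rHDL after cholesterol loading was compared with loading alone, all under LPS. None of the 25 genes tested was called, against 1.02% of all 8965 genes (0.424% higher and 0.591% lower), and neither edgeR nor DESeq2 called any. Unadjusted p was under 0.05 for 2 of the 25 genes and 1044 of all genes. Log2 fold changes lay between -0.55 and 0.56, with a median of 0.080 against 7.44e-05 over all genes, and the smallest edgeR adjusted p was 0.302, for Pfkl. The groups were separate for Hk1 and Pfkl only, 2 of 25, against 15.3% of all genes.

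Aldoc and Eno2 were at low levels with and without rHDL in loaded cells. Aldoc had 4.32, 3.50 and 2.98 CPM in loaded rHDL cells, against 2.77, 2.45 and 3.55 CPM in loaded cells. Eno2 had 13.0, 21.9 and 16.3 CPM in loaded rHDL cells and 17.5, 22.5 and 19.2 CPM in loaded cells. Both pairs of groups overlapped, with log2 fold changes of 0.30 ± 0.20 and -0.21 ± 0.18. Hif1a had 549, 613 and 564 CPM in loaded rHDL cells and 559.8, 523 and 475 CPM in loaded cells (0.15 ± 0.071). Pdk1 had 79.7, 69.7 and 76.7 CPM in loaded rHDL cells and 78.0, 69.4 and 66.4 CPM in loaded cells (0.080 ± 0.087). The values of each gene ran into each other between the groups. Slc2a1 had 462, 555 and 433 CPM in loaded rHDL cells and 437, 460.4 and 396 CPM in loaded cells, Hk2 359, 389 and 371 CPM in loaded rHDL cells and 367, 360.1 and 328 CPM in loaded cells, and Egln3 5.36, 10.5 and 6.30 CPM in loaded rHDL cells and 9.55, 11.3 and 11.4 CPM in loaded cells. Bnip3 averaged 68.3 ± 13.3 CPM in loaded rHDL cells and 63.5 ± 6.99 CPM in loaded cells, Epas1 3.24 ± 1.39 CPM in loaded rHDL cells and 3.28 ± 0.440 CPM in loaded cells, and Ndrg1 268 ± 26.2 CPM in loaded rHDL cells and 280.2 ± 32.0 CPM in loaded cells (SD, n = 3 each). The authors' deposited table for this comparison, also labelled 1.5-fold, has 47 rows and lists none of the 34 genes.

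Of the neighbouring lists, 0 of 16 sugar handling genes, 0 of 10 pentose phosphate genes and 0 of 12 mitochondrial pyruvate genes were called by edgeR after loading, with 0, 1 and 0 at an unadjusted p under 0.05. Of 29 other hypoxia targets 1 rose and 2 fell. Cxcr4 averaged 2.72 ± 0.484 CPM in loaded rHDL cells and 7.79 ± 1.29 CPM in loaded cells, a change of -1.52 ± 0.19 (edgeR adjusted p = 0.00116). The heme-degrading enzyme Hmox1 fell by 0.46 ± 0.091, and Lox rose by 1.53 ± 0.28, with 2.98% of its exon bases counted. The split of all calls was 38 higher and 53 lower, and 25 higher and 67 lower under library totals.

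**Figure D4:**
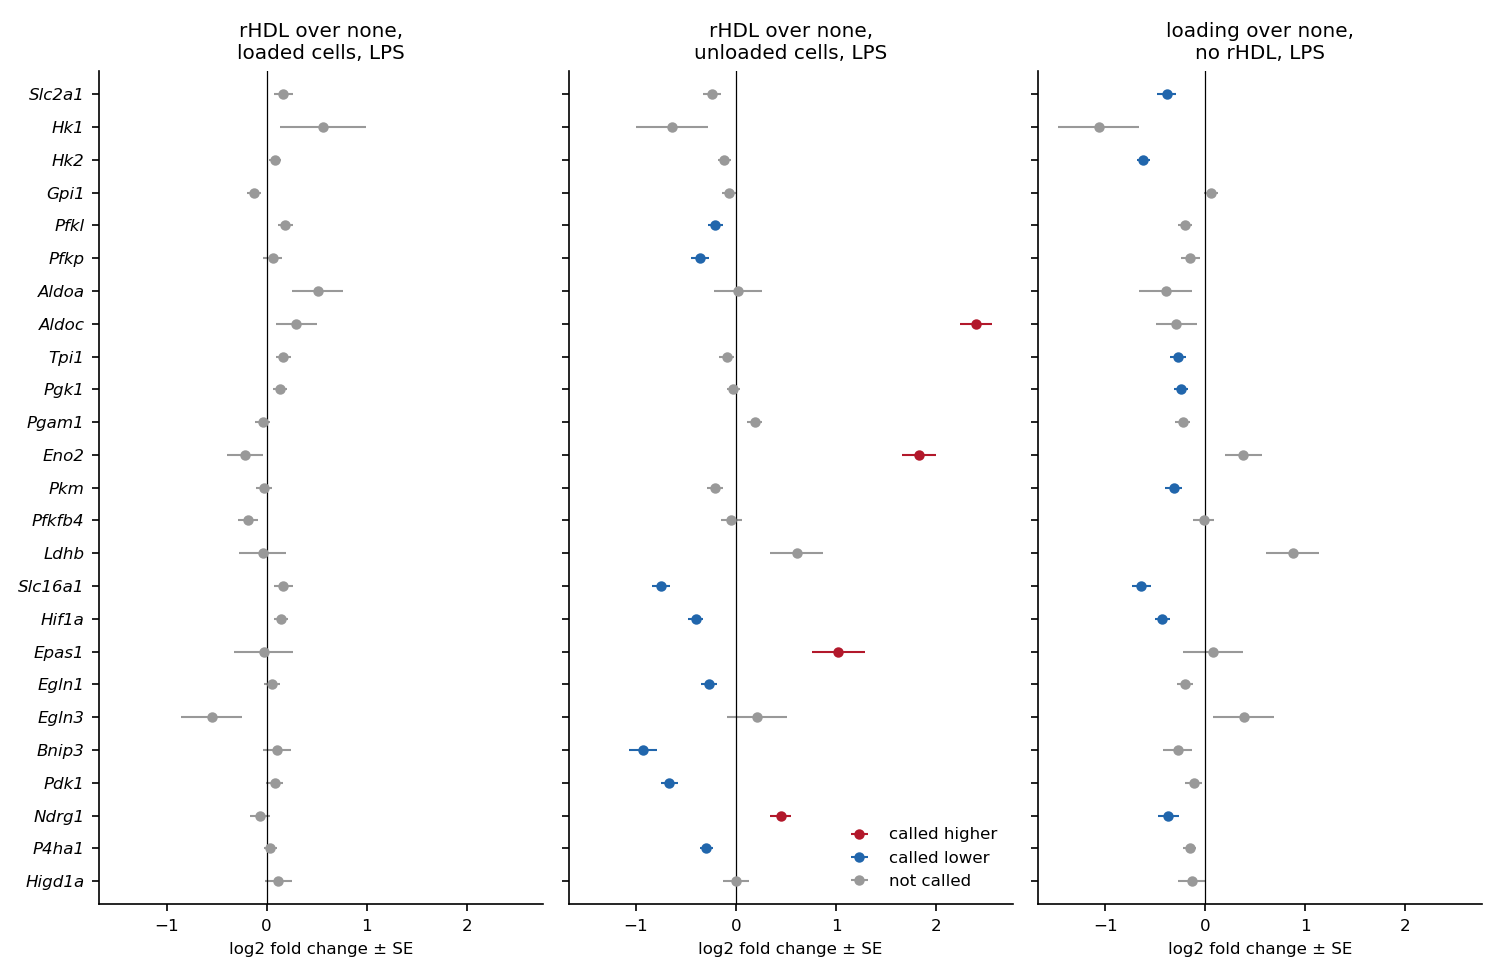
Log2 fold changes of the 25 tested genes, with points for estimates and bars for 1 SE, for rHDL in loaded cells (left), rHDL in unloaded cells (middle) and cholesterol loading without rHDL (right), all under LPS. Red marks genes called higher, blue genes called lower and grey genes not called. All points on the left are grey and lie between -0.55 and 0.56, while Aldoc and Eno2 lie at 2.40 and 1.83 in the middle.

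The difference between these rHDL effects was itself tested, as the effect in loaded cells minus the effect in unloaded cells. Of the 25 genes 9 had a higher and 3 a lower effect after loading, against 30.2% of all genes called (16% higher and 14.2% lower). Higher means a more positive log2 effect, not a stronger one. The 3 lower ones were genes that rHDL raised in unloaded cells. The difference was -2.11 ± 0.27 for Aldoc (edgeR adjusted p = 5.43e-05), -2.05 ± 0.25 for Eno2 (3.79e-05) and -0.51 ± 0.15 for Ndrg1 (0.0164). The 9 higher ones were led by Bnip3 (1.03 ± 0.20), Slc16a1 (0.92 ± 0.13), Pdk1 (0.75 ± 0.12) and Hif1a (0.55 ± 0.10), with edgeR adjusted p of 1.88e-04 to 0.00153. Pfkp, Slc2a1, Pfkl, P4ha1 and Egln1 had differences of 0.32 to 0.42. Of these 9, all but Slc2a1 were called lower with rHDL in unloaded cells, and none was called with rHDL after loading. Bnip3 had -0.93 in unloaded and 0.10 in loaded cells, and Slc16a1 -0.75 and 0.17. Pdk1 had -0.67 and 0.080, and Hif1a -0.40 and 0.15. Hif1a, Slc16a1 and Slc2a1 were also called lower with loading alone, described below. Epas1, at -1.05 ± 0.40, was not called (edgeR adjusted p = 0.0584), but was by DESeq2 (0.0463), under library totals (0.0352), with no low-count filter (0.0152), with replicate blocks (0.00806), and without LPS-alone replicate 2 (0.0473), rHDL replicate 1 (0.0365) or loaded rHDL replicate 2 (0.0105). Tpi1 was called without loaded rHDL replicate 3 (0.35, adjusted p = 0.0122), and Pgam1 without loaded rHDL replicate 2 (-0.32, adjusted p = 0.0115). Replicate blocks with edgeR also called Tpi1 (0.26, adjusted p = 0.0148), Egln3 (-0.80, 0.0116) and Hk2 (0.20, 0.0472). Pgam1 was called under library totals too (-0.39, edgeR adjusted p = 0.0312). Aldoc, Eno2, Slc16a1, Hif1a, Bnip3 and Pdk1 kept their calls under every alternative run except the 1.5-fold minimum, which Hif1a, at 0.55, did not reach. Calls ended for Ndrg1 without loaded replicate 2 (adjusted p = 0.0585) or loaded rHDL replicate 3 (0.0522), for Slc2a1 without LPS-alone replicate 2, rHDL 1 or 3, loaded 3 or loaded rHDL 2 (0.0547 to 0.0838), for Pfkp without LPS-alone 1 or 2, rHDL 2, loaded 2 or 3 or loaded rHDL 3 (0.0562 to 0.0646), and for Egln1 without any 1 library other than loaded 1 and loaded rHDL 1 and 3 (0.0530 to 0.103). With library totals the median over all genes was -0.20, with 1016 higher and 2124 lower over all genes and 4 higher and 5 lower here, which ended the calls of Slc2a1, Pfkl, Pfkp, Egln1 and P4ha1. Calls of Pfkp (edgeR adjusted p = 0.0558) and Egln1 (0.0663) also ended with no low-count filter, and that of Pfkp with its richest row alone (0.0547).

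In the neighbouring lists, rHDL had a lower effect after loading for 3 of 10 pentose phosphate genes, Pgd (-0.56), Tkt (-0.50) and Prps1 (-0.61). Among 29 other hypoxia targets 5 were higher, among them Flt1 (1.92) and Plod1 (0.79), and 9 lower, led by Cxcr4 (-1.63). Sugar handling genes split into 1 higher (Pgm2, 0.83) and 3 lower (Pfkfb2 -1.38, Pgm2l1 -0.85 and Gbe1 -0.34) of 16. Of the 12 mitochondrial pyruvate genes 2 had a lower effect, Pdp2 (-0.65) and Cs (-0.26).

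Cholesterol loading without rHDL was compared with LPS alone. It shares the LPS-alone libraries with the comparison of rHDL in unloaded cells, so the values of both move with those 3 libraries. Hk2, Slc2a1, Tpi1, Pgk1 and Pkm of the glycolytic chain, the lactate transporter Slc16a1, Hif1a and Ndrg1 were lower in loaded cells. Of the 25 genes tested 8 fell, none rose and 17 were not called by the main edgeR fit, against 8.57% called over all genes (3.99% higher and 4.57% lower). Unadjusted edgeR p was under 0.05 for 14 of the 25, of which Ldhb alone was higher, and for 2128 of all 8965 genes. DESeq2 called 9 lower and 0 higher, against 504 lower and 334 higher over all genes. The median log2 fold change was -0.23, against 0.0080 over all genes. The groups were separate for 12 of the 25, against 32.9% of all genes.

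Hk2 had 367, 360.1 and 328 CPM in loaded cells, against 557, 551 and 513 CPM with LPS alone, a change of -0.62 ± 0.064 (edgeR adjusted p = 3.23e-05). Slc16a1 had 46.3, 39.6 and 37.5 CPM in loaded cells, against 66.1, 66.3 and 60.4 CPM with LPS alone, a change of -0.64 ± 0.10 (edgeR adjusted p = 8.50e-04). Hif1a had 559.8, 523 and 475 CPM in loaded cells, against 722, 699.7 and 676 CPM with LPS alone, a change of -0.43 ± 0.071 (edgeR adjusted p = 0.00203). No loaded library reached the lowest library of LPS alone for any of these 3, and they kept their calls under every alternative run except the 1.5-fold minimum, which Hif1a, at -0.43, did not reach. Slc2a1 had 437, 460.4 and 396 CPM in loaded cells and 532, 618 and 542 CPM with LPS alone, and fell by 0.39 ± 0.094. Pgk1 had 384, 359 and 354 CPM in loaded cells and 435, 440.2 and 425 CPM with LPS alone, a change of -0.25 ± 0.067, and the counted part of Pkm had 72.8, 69.1 and 71.8 CPM in loaded cells and 94.1, 90.5 and 82.0 CPM with LPS alone, a change of -0.32 ± 0.084. Tpi1 fell by 0.27 ± 0.076 and Ndrg1 by 0.37 ± 0.10, where Ndrg1 had overlapping groups. Each of these 5 lay at an edgeR adjusted p between 0.0203 and 0.0390.

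Aldoc, Eno2, Bnip3 and Pdk1, which changed with rHDL in unloaded cells, were not called here by the main edgeR fit. Aldoc was at 2.92 ± 0.565 CPM in loaded cells and 3.58 ± 0.336 CPM with LPS alone, Eno2 at 19.7 ± 2.58 CPM in loaded cells and 15.1 ± 2.39 CPM with LPS alone, and Bnip3 at 63.5 ± 6.99 CPM in loaded cells and 77.0 ± 11.8 CPM with LPS alone (SD, n = 3 each). Pdk1 had 78.0, 69.4 and 66.4 CPM in loaded cells and 87.5, 72.1 and 72.7 CPM with LPS alone. Egln3 had 9.55, 11.3 and 11.4 CPM in loaded cells and 6.39, 11.4 and 6.54 CPM with LPS alone, with no call for either and overlapping groups. Ldhb, at 1.80, 2.55 and 1.68 CPM in loaded cells and 0.851, 1.09 and 1.31 CPM with LPS alone, was separate but not called (edgeR adjusted p = 0.0588). Loaded and LPS-alone libraries of the same number deviated from their group means with correlations of 0.177, 0.254 and 0.047. With these numbers as blocks, edgeR called Eno2 (0.39, adjusted p = 0.0172) and Ldhb (0.87, 0.0492) higher and Bnip3 (-0.27, 0.0396) lower. Pfkl, Pgam1, Egln1 and P4ha1 were then called lower too (0.0145 to 0.0313).

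The count of 8 is not firm. It was 5 without LPS-alone replicate 1, 3 without replicate 2 and 4 without replicate 3, and 3, 5 and 3 without loaded replicates 1, 2 and 3, with the calls of Tpi1 and Pgk1 ending each time (edgeR adjusted p of 0.0527 to 0.169). The call of Pkm ended without any 1 library other than LPS-alone replicate 3 (0.0699 to 0.122), and with its richest row alone (-0.22, adjusted p = 0.133). Those of Slc2a1 and Ndrg1 ended without LPS-alone replicate 2 or 3 or loaded replicate 1 or 3 (0.0505 to 0.173). Pgk1 also lost its call with no low-count filter (edgeR adjusted p = 0.0653). Under library totals the count was 4 (1 higher, Ldhb, and 3 lower), with 626 higher and 254 lower over all genes in place of 358 and 410. Of the neighbouring lists 1 of 16 sugar handling genes fell (Pgm2, -0.27), 1 of 10 pentose phosphate genes fell (Tkt, -0.23) and 1 of 12 mitochondrial pyruvate genes fell (Pdp2, -0.49). Of 29 other hypoxia targets P4hb (0.37) and the transferrin receptor Tfrc (0.30) rose and Flt1 (-0.90) and Bhlhe40 (-0.78) fell.

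Loading in the presence of rHDL compared loaded rHDL cells with rHDL cells. Aldoc, Eno2, Epas1 and Ndrg1 were lower in loaded rHDL cells, and Bnip3 and Pdk1 were higher. Of the 25 genes 5 rose, 6 fell and 14 were not called, against 35.6% called over all genes (18.5% higher and 17.1% lower). The groups were separate for 14 of the 25, against 43.1% of all genes. The median log2 fold change was -0.0060, against -0.0094 over all genes. The comparison shares the rHDL libraries with the rHDL comparison in unloaded cells, with the opposite sign.

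Aldoc had 4.32, 3.50 and 2.98 CPM in loaded rHDL cells, against 21.7, 18.1 and 17.2 CPM in rHDL cells, a change of -2.40 ± 0.16 (edgeR adjusted p = 5.02e-08). Eno2 had 13.0, 21.9 and 16.3 CPM in loaded rHDL cells, against 45.3, 57.1 and 59.4 CPM in rHDL cells, a change of -1.67 ± 0.17. Ndrg1 had 259, 297 and 248 CPM in loaded rHDL cells, against 512, 504 and 464 CPM in rHDL cells, a change of -0.88 ± 0.10. All 3 were separate by wide margins. Pdk1 had 79.7, 69.7 and 76.7 CPM in loaded rHDL cells, against 49.0, 49.2 and 48.1 CPM in rHDL cells, a rise of 0.63 ± 0.088. Hk2 had 359, 389 and 371 CPM in loaded rHDL cells and 496, 496 and 504 CPM in rHDL cells, a change of -0.42 ± 0.064, and Pgam1 had 88.5, 107 and 86.3 CPM in loaded rHDL cells and 129.6, 129 and 128 CPM in rHDL cells, a change of -0.45 ± 0.075. The edgeR adjusted p was at most 2.76e-04 for these 6. Bnip3 rose by 0.75 ± 0.14 and Epas1 fell by 0.97 ± 0.26. Slc16a1 (0.27 ± 0.10), Pfkp (0.27 ± 0.093) and P4ha1 (0.18 ± 0.065) rose as well.

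Hif1a was separate but not called, with 549, 613 and 564 CPM in loaded rHDL cells and 513, 548 and 524 CPM in rHDL cells (0.12 ± 0.071). Slc2a1 had 462, 555 and 433 CPM in loaded rHDL cells and 458, 501 and 474 CPM in rHDL cells and Egln3 5.36, 10.5 and 6.30 CPM in loaded rHDL cells and 5.88, 13.2 and 9.63 CPM in rHDL cells, and neither was called. With same-numbered libraries as blocks Pfkl was called too (0.19, edgeR adjusted p = 0.00818; 0.0538 without blocks), as it was by DESeq2 without blocks (0.0285) and with DESeq2 size factors (0.0403). A fit of the 2 groups alone ended the calls of Slc16a1 (edgeR adjusted p = 0.0634), Pfkp (0.0645) and P4ha1 (0.125). With no low-count filter the calls of Pfkp (0.0796) and P4ha1 (0.151) ended. The calls of Slc16a1, Pfkp and P4ha1 were lost under library totals, which gave 1304 higher and 2009 lower over all genes and 2 higher and 6 lower here. Single libraries left out ended the call of Pfkp (rHDL replicates 1 and 2, loaded rHDL 3), Slc16a1 (rHDL 2 and 3, loaded rHDL 1 and 2) and P4ha1 (any but rHDL 1), at edgeR adjusted p of 0.0506 to 0.157. Pfkl was called without loaded rHDL replicate 3 (0.25, adjusted p = 0.0290) and Pkm without loaded rHDL replicate 2 (-0.23, adjusted p = 0.0326).

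Of the neighbouring lists, 2 of 10 pentose phosphate genes rose and 4 fell with loading in rHDL cells, led by Tkt (-0.72 ± 0.058) and Pgd (-0.55 ± 0.055), with G6pdx (0.24) and Prps1 (-0.38) next. Sugar handling genes gave 2 higher (Pgm2 0.56 and Slc2a6 0.25) and 2 lower (Gbe1 -0.45 and Pfkfb2 -0.88) of 16. Mitochondrial pyruvate genes gave 1 higher (Pdk3 0.40) and 2 lower (Pdp2 -1.15 and Cs -0.23) of 12. Among 29 other hypoxia targets 5 rose and 9 fell, among them Plod1 (0.79), Cxcr4 (-1.78) and Bhlhe40 (-1.52).

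**Figure D5:**
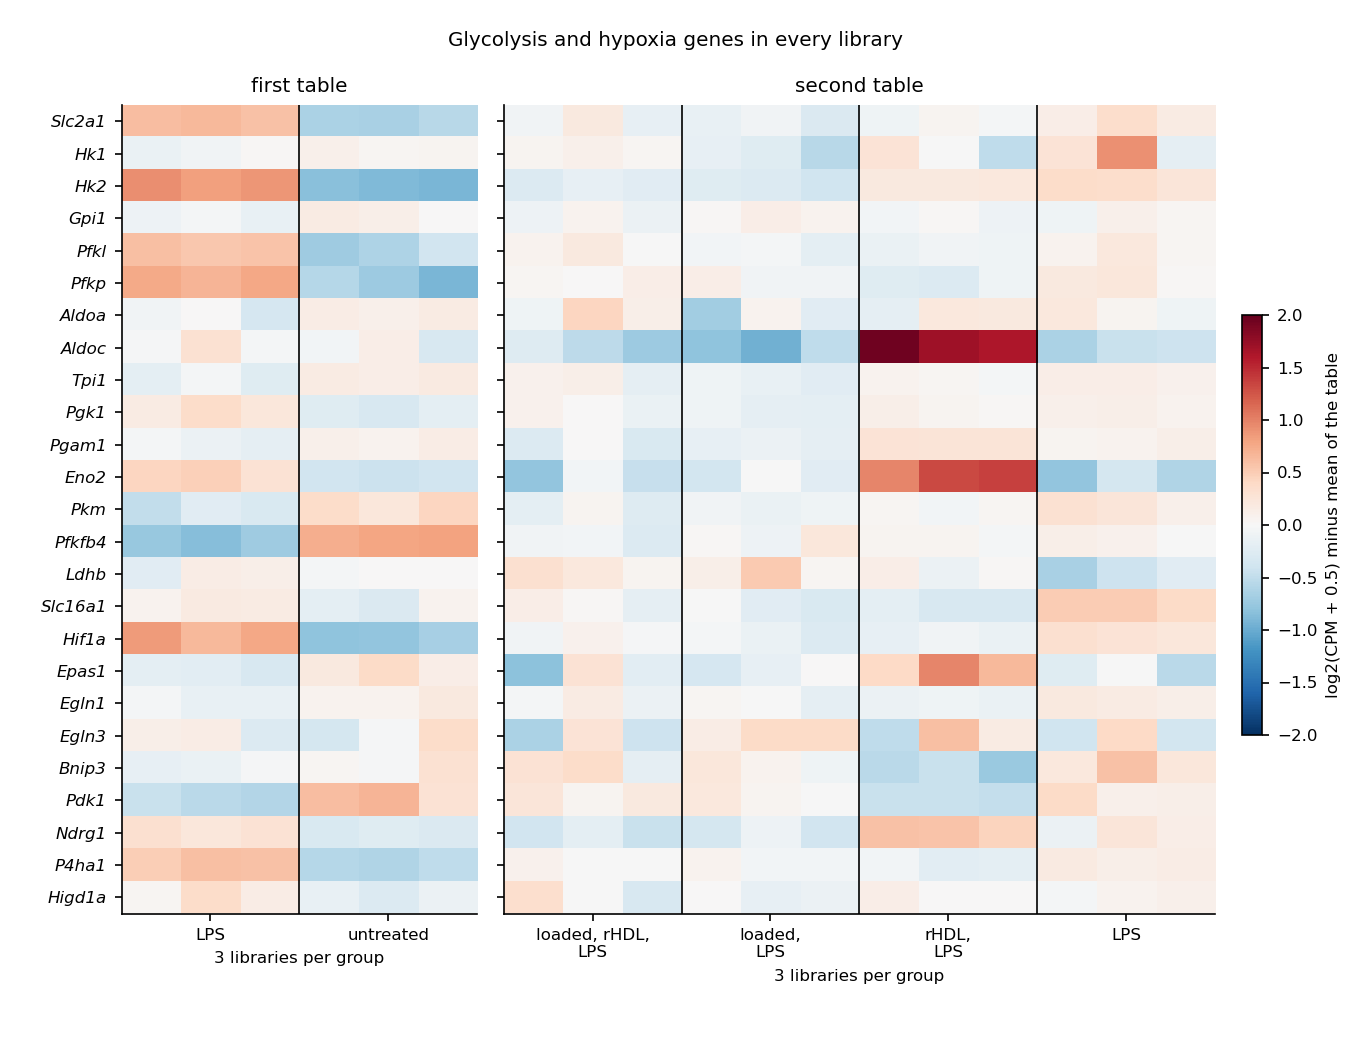
Level of the 25 genes tested in both tables in each of the 18 libraries, as log2(CPM + 0.5) minus the gene's mean over its table, with red for above and blue for below the mean. Columns are libraries in groups of 3, with the 2 tables centred apart. Within their table the 3 rHDL columns hold the highest values of Aldoc and Eno2, and the 3 untreated columns the lowest of Hk2 and Hif1a.

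Levels between genes were compared per kilobase of exon counted, over the 21 well measured genes. With LPS alone in the second table, Tpi1 (262 CPM per kilobase), Pgk1 (237), Slc2a1 (219) and Hif1a (147) were highest. Epas1 was lowest at 0.574 CPM per kilobase, below Ldhb (0.840) and Aldoc (2.10). In rHDL cells Aldoc stood at 11.2 CPM per kilobase and Eno2 at 20.5, so both remained far below Tpi1 (245) and Pgk1 (233) on this scale of level. The levels of Tpi1 and Pgk1 are uncertain because of their pseudogenes, and Slc2a1 stood at 186. Aldoa and Eno1, with few exon bases counted, were not ranked.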

How the data were processed

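Gene expression was measured by RNA-seq (RNA integrity above 8, poly-dT primed) in 18 libraries. The authors deposited raw read counts per transcript row in 2 tables; per the submitters' processing notes the tools were cutadapt, HISAT2, Subread featureCounts and DESeq2, with build mm10 and no versions given. Tables of log2 fold changes, p-values and RPKM ratios are the authors' deposited comparisons and were used only where named. Rows were summed per symbol and each table was fitted apart with edgeR 4.0.16 (R 4.3.3): TMM scaling, filterByExpr with a minimum count of 10, quasi-likelihood F test, Benjamini-Hochberg adjustment over all genes and calls at 0.05. The SE of a fold change is its size over the square root of F. Counting ignored strand as far as the files show, so overlapping and antisense genes cannot be told apart, and the depth given for each table limits precision. The 4 groups of the second table share 1 fit. Alternatives were DESeq2 1.42.0, its size factors, library totals, other filters, the richest row per symbol, a 1.5-fold minimum, 2-group fits, replicate blocks and leaving out each library.

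Libraries with the same number, as given in the labels, deviated together for loaded rHDL and rHDL cells (correlations 0.436, 0.283 and 0.177), so for that comparison the fit with pairs as blocks is given where it changes a call, while the printed values come from the fit without blocks. Genes, lists and the rule for naming genes (per-library values for the 6 called genes of smallest p and for 8 preset genes; up to 4 genes per list) were chosen with earlier results of these data known. The values of 1 gene that the rule names are not reported here. Fits were tested on simulated data.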

Additional observations from a re-analysis of the deposited data

Results flagged for a closer look

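The effect of rHDL differed between loaded and unloaded cells for 12 of the 25 genes tested, by edgeR's test of the difference itself at an adjusted p under 0.05. As the log2 effect in loaded cells minus that in unloaded cells, the difference was -2.11 for Aldoc, -2.05 for Eno2 and -0.51 for Ndrg1. It was 1.03 for Bnip3, 0.92 for Slc16a1, 0.75 for Pdk1, 0.55 for Hif1a, 0.42 for Pfkp, 0.41 for Slc2a1, 0.39 for Pfkl, 0.34 for P4ha1 and 0.32 for Egln1. Apart from Slc2a1, the genes with a positive difference were called lower with rHDL in unloaded cells, and none was called with rHDL after loading. Over all genes 30.2% were called by the same test.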

How the results depend on the processing

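Over all genes, calls were 3275 for rHDL in unloaded cells, 91 in loaded cells, 2704 for the difference, 768 for loading and 3196 for loading with rHDL. At a 1.5-fold minimum they were 1572, 41, 1700, 256 and 1532. For rHDL in loaded cells DESeq2 called 161 genes, no low-count filter 176 and a fit of the 2 groups alone 42, and leaving out single libraries gave 30 to 123. For loading the fit of 2 groups gave 1216, and leaving out single libraries 350 to 594. Among the 34 genes, calls at 1.5-fold were 10 for LPS, 6 for rHDL, 5 for the difference, 2 for loading and 6 for loading with rHDL. Loading gave 4 under library totals and 3 to 5 when single libraries were left out, in place of 8.

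With replicate numbers as blocks, calls over all genes were 6877 for LPS, 4010 for rHDL, 486 for rHDL in loaded cells, 3443 for the difference, 1651 for loading and 3886 for loading with rHDL. Among the 34 genes the block gave 18, 15, 0, 16, 15 and 12. Same-numbered libraries correlated over 0.1 in 0 of 3 pairs of the first table (-0.077 to 0.074) and 13 of 18 pairs of the second (-0.030 to 0.436). Only for loading with rHDL did all 3 pairs pass, and there the block changed the call of Pfkl alone.

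Under library totals the LPS values of Pgk1 (-0.21), Slc16a1 (-0.43), Ndrg1 (-0.16), Higd1a (-0.32), Aldoc (-0.56) and Ldhb (-0.68) changed sign; the median of all genes moved to -0.77 by the same scaling. Of the other values of single genes, 1079 kept their side of the threshold, 37 gained a call and 34 lost one. A change of sign was counted only where at least 1 of the fits called the gene. Uncalled values that changed sign are therefore among those kept, such as Eno1 with LPS (0.49 in the main fit and -0.23 at its lowest). With single libraries left out these counts were 968, 9 and 79, with 0 reversed among called values. Uncalled values did cross 0, such as Aldoa for rHDL in unloaded cells (-0.061 to 0.15). Depth limits low genes such as Epas1, Ldhb and Aldoc most.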

Other observations

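The part of Pkm that was counted lies in its 2 mutually exclusive exons, each 167 bases long, at chr9:59675029-59675195 and chr9:59675568-59675734 (mm10). The upstream exon marks the PKM1 form of pyruvate kinase and the downstream one the PKM2 form, which is known from proliferating and activated cells. The downstream exon held 69.4% to 71.5% of the counts of both exons in loaded rHDL cells, 69.1% to 71.1% in loaded cells, 66.5% to 71.5% in rHDL cells and 62.7% to 68.0% with LPS alone. In the first table it held 76.7% to 78.2% in LPS-stimulated cells, against 72.8% to 74.5% in untreated cells. The exact 95% binomial intervals of single libraries, which cover counting error only, reached from 73.4% to 80.9% with LPS and from 70.8% to 76.4% without. The downstream exon made up the larger share of counts in all 18 libraries. These shares were looked at after the data were seen and were not tested.

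Levels of several genes differed between the LPS groups of the 2 tables, which were normalized apart and never tested against each other. Bnip3 averaged 77.0 ± 11.8 CPM with LPS alone in the second table and 19.1 ± 1.04 CPM with LPS in the first, Ndrg1 362 ± 44.9 CPM in the second table and 145 ± 4.76 CPM in the first, and Pdk1 77.4 ± 8.71 CPM in the second table and 32.1 ± 1.64 CPM in the first (SD, n = 3 each). Eno2 averaged 15.1 ± 2.39 CPM in the second table and 54.3 ± 3.50 CPM in the first, and Ldhb 1.08 ± 0.228 CPM in the second table and 5.49 ± 0.823 CPM in the first. Eno2 and Ldhb were therefore lower, and Bnip3, Ndrg1 and Pdk1 higher, in the second table.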
